A study of Homo sapiens with 6 samples.

Results

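DNMT3B and UTF1 are a pair of chromatin genes known for high expression in pluripotent human cells. They were taken from the table of 3′ end regions by gene name, and each name has 1 region, so 2 of the 14686 regions in the table are described. Both regions passed the filter on low values. The 6 libraries come from the established line H9 of human embryonic stem cells (hESCs), all at passage 51. The hESCs grew on growth factor reduced matrigel in medium conditioned on mouse embryonic fibroblasts, and 3 libraries were made from them, labelled G1 (0 h), G1/S (2 h) and S (3 h). The other 3 libraries, labelled G1 (0 h), G1/S (3 h) and S (6 h), are from endoderm cells obtained by treatment with activin A (100 ng/ml, 6 days) in RPMI 1640 (fetal bovine serum 0% for the first day, 0.2% for the second and 2.0% afterwards, medium changed on day 3). Serum, medium and activin A therefore differ along with cell type and cannot be told apart from it. The labels give neither the means of synchronisation nor the event from which the hours count.

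DNMT3B is an enzyme that places new methyl groups on cytosines of CpG dinucleotides, together with its relative DNMT3A, while DNMT1 copies existing methylation after DNA replication. A form of DNMT3B is abundant in the early embryo and in embryonic stem cells and is replaced by lower expression as cells differentiate. UTF1 (undifferentiated embryonic cell transcription factor 1) is a chromatin-bound protein, found in pluripotent cells and germ cells, whose gene is a known target of the pluripotency factors OCT4 and SOX2. In mouse stem cells it has been tied to genes that carry Polycomb marks and to the decapping of messenger RNA.

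The assay counts the 3′ ends of polyadenylated transcripts, so the transcript ends of the members are shown first. The last 30 bases in GENCODE release 29 (GRCh38, plus strand, last exon, 3′ untranslated region) are given 5′ to 3′, with the polyadenylation signal in capitals. They lie at chr20:32809327-32809356 for DNMT3B and at chr10:133231529-133231558 for UTF1.
DNMT3B: ttatgtttaATTAAAatcagtatttgtcta
UTF1: tatgttcAATAAAaggattgttttcctaga
The DNMT3B end is shared by 4 of its 6 annotated transcripts, and its signal, the common variant ATTAAA, starts 21 bases before the end. UTF1 has 1 annotated transcript, with the canonical AATAAA starting 23 bases before the end. The ends differ far more in base composition. G and C make up 35.6% of the last 500 bases in DNMT3B, a value above that of 5.7% of the 9881 named regions with such a value. In UTF1 they make up 73.8%, above 99.9% of those regions, whose median is 50.6%.

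The deposited positions are those of another build, hg18 by the submitters' processing notes, for which no annotation was used here, so no exon is assigned to them. The DNMT3B region is chr20:30860576-30860835 (260 bases) and the UTF1 region is chr10:134894772-134895029 (258 bases), both written in ascending order. The order of the coordinates gives the annotated strand in 99.7% of 9881 named regions, and both genes lie on the plus strand.

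The start of UTF1 is shown as well, since its base composition resembles that of its end. The 250 bases before the RefSeq start (GRCh38.p14, plus strand, chr10:133229967-133230216) are printed with each GGGCGG or its reverse complement CCGCCC, the GC box bound by SP1-type factors, in capitals.
UTF1: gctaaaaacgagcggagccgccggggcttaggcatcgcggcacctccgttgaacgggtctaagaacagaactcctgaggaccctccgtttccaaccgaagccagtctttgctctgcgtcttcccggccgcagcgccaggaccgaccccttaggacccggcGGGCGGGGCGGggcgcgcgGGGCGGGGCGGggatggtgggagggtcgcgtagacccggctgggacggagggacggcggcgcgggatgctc
This window holds 4 GC boxes, which overlap in pairs, and 32 CpG dinucleotides. At least 1 GC box is present in 42.6% of 35116 RefSeq windows of this length, and 90.5% of the windows have fewer CpGs (median 11.0). It holds no octamer ATTTGCAT or its reverse complement, which 1.6% of windows have, and no CCAAT in either orientation, which 32.0% have. Only exact matches within these 250 bases were counted, and no other part of the gene or its flanks was searched. For DNMT3B the same table places the start 17467 bases inside the gene as RefSeq spans it, so that window is not printed.

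Signal below means reads in a region divided by the size factor of the library. Library totals ran from 2502792 reads in endoderm S to 6203079 in hESC S, and 1 read is worth a signal of 0.591 in hESC S and 1.71 in endoderm S. Of 14 measured definitive endoderm genes 13 were higher in endoderm, among them FGF17, EOMES, GSC and CER1. Of 18 measured pluripotency genes 3 were higher and 5 lower, where 6.9% of all tested regions were called higher and 7.6% lower. The pluripotency factor NANOG, and DNMT3L and DPPA3 from the methylation list, have no region in the table used here. The G1/S libraries stand apart in base composition. Across named regions, the rank correlation between GC at the 3′ end and a region's deviation from its own mean was 0.42 in hESC G1/S and 0.27 in endoderm G1/S. It was between -0.40 (endoderm G1) and -0.02 (hESC G1) in the other 4 libraries.

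DNMT3B was lower in each endoderm library than in any hESC library. Among hESC libraries its signal was 469.8 (G1), 452.9 (G1/S) and 392.8 (S), from 621, 435 and 665 reads. In endoderm it was 165.7, 126.4 and 125.0 in the same order, from 240, 76 and 73 reads. The lowest hESC value is 2.37 times the highest endoderm value, so the groups do not overlap. Over all 14657 regions tested, 18.7% had every endoderm library below every hESC library. The mean signal fell from 438.5 ± 40.5 to 139 ± 23.1 (SD, n = 3 libraries per type, which differ in phase). The log2 difference was -1.66 ± 0.26 (SE) on the log2(signal + 1) scale, with adjusted p = 0.0102 in limma with Benjamini-Hochberg adjustment over all tested regions. At this threshold of 0.05, 7.6% of all regions were lower in endoderm, 6.9% were higher and 14.5% were called in either direction. The call was lost without the hESC G1/S library (-1.57, limma adjusted p = 0.0762) and without the endoderm G1/S library (-1.57, limma adjusted p = 0.0683). With phase as a term, leaving out either library of a phase gives the same difference, so these are not separate losses. In bulk RNA, fewer cells that express a gene and less RNA per cell cannot be told apart.

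UTF1 showed the larger fall of the pair. Among hESC libraries its signal was 1329 (G1), 1501 (G1/S) and 715.3 (S), from 1757, 1442 and 1211 reads. In endoderm it was 107.0, 281.2 and 159.2, from 155, 169 and 93 reads. Again no endoderm library reached the lowest hESC library, which was 2.54 times the highest endoderm one. The mean fell from 1182 ± 413 to 182.5 ± 89.4 (SD, n = 3 per type), and the log2 difference was -2.73 with a standard error of 0.33 (limma adjusted p = 0.00476). Only 3.2% of tested regions had a more negative difference, against 10.73% for DNMT3B. The UTF1 call was kept in each of the 6 fits that leave out 1 library, with differences between -3.02 and -2.29. With phase as a term, leaving out either library of a phase gives the same difference, so these fits are not separate checks. The difference was -2.29 without either G1 library, -2.89 without either G1/S library and -3.02 without either S library. UTF1 was not lost in endoderm: its 107.0 in endoderm G1 has a 95% counting interval of 90.8 to 125.3, above 69.1% of the regions of that library. In the hESC libraries it stood above 92.7% to 96.1% of regions.

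**Figure D1:**
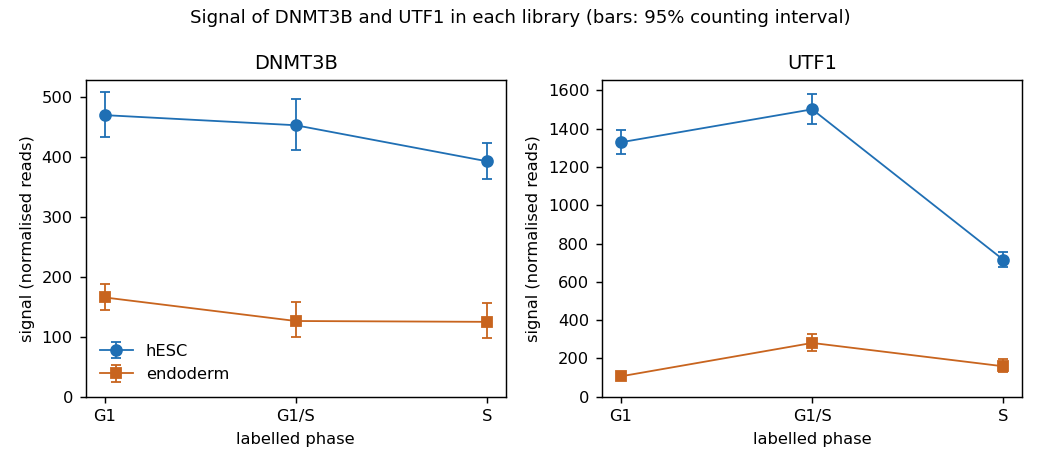
Signal (reads divided by the size factor, linear axes from 0) of DNMT3B and UTF1 in each of the 6 libraries by labelled phase, with 95% Poisson counting intervals as bars and lines that only join libraries of a type. In both panels the 3 endoderm libraries lie below the 3 hESC libraries, and in this uncorrected signal UTF1 varies more between phases than DNMT3B, an order that turns in hESCs after GC correction.

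Within a phase the fall can be read between single libraries, with intervals that cover counting error only. The hESC to endoderm ratio of DNMT3B was 2.84 for G1 (95% interval 2.44 to 3.30), 3.58 for G1/S (2.80 to 4.63) and 3.14 for S (2.47 to 4.06). These 3 intervals overlap. For UTF1 the ratio was 12.4 for G1 (10.5 to 14.7), 5.34 for G1/S (4.55 to 6.3) and 4.49 for S (3.64 to 5.61). The G1 interval lies above both others. With the signal corrected for GC at 3′ ends, the UTF1 ratios were 7.63, 5.06 and 5.13, and those of DNMT3B 3.22, 3.92 and 3.08. Under that correction the log2 difference between the types was -2.54 for UTF1 (limma adjusted p = 0.00089) and -1.75 for DNMT3B (limma adjusted p = 0.00358).

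The genes were also compared within each library, where size factors cancel but effects of base composition do not. In hESCs UTF1 stood at 2.83 (G1), 3.31 (G1/S) and 1.82 (S) times the DNMT3B signal. In endoderm the ratio was 0.646, 2.22 and 1.27 in the same order. These ranges overlap, since endoderm G1/S lies above hESC S. On the log2 scale the mean ratio was 1.36 ± 0.45 in hESCs and 0.29 ± 0.89 in endoderm (SD, n = 3 per type), a difference of -1.07 (exact permutation test, two-sided, p = 0.2, where 0.1 is the smallest p that 3 against 3 allows). The difference was -2.12 between the G1 libraries, -0.58 between the G1/S libraries and -0.52 between the S libraries. Without the endoderm G1 library it was -0.62. With GC-corrected signal, an alternative chosen after seeing the data, the ratio was 2.89, 1.82 and 2.50 in hESCs against 1.22, 1.41 and 1.5 in endoderm, and the ranges do not overlap. The mean log2 ratio was then 1.24 ± 0.34 against 0.45 ± 0.15 (SD, n = 3 per type), a difference of -0.78 (exact permutation test, two-sided, p = 0.1, the smallest possible here). Whether the groups overlap in this ratio thus depends on the GC correction, and neither form can pass 0.05 with 3 libraries per type.

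In the deposited signal DNMT3B varied little across the phases. Its coefficient of variation over the 3 phases was 9.2% in hESCs and 16.6% in endoderm, where the median over tested regions was 35.4% and 37.9%. Only 4.5% of regions in hESCs and 12.6% in endoderm had a lower value. This ranking did not allow for counting error, which is relatively larger in weaker regions. DNMT3B itself stood above 87.1% to 88.8% of regions in hESC libraries and 71.3% to 76.0% in endoderm libraries. After GC correction its signal was 390, 597.8 and 375.5 over the hESC phases and 121.2, 152.3 and 122 over those of endoderm, with coefficients of 27.4% and 13.4%. G1/S was then the highest library of each type, so the low variation in hESCs holds for uncorrected signal only. From G1 to S the signal ratio was 0.836 in hESCs (95% counting interval 0.748 to 0.934) and 0.754 in endoderm (0.572 to 0.984). In the fit over both types the S minus G1 log2 difference was -0.33 ± 0.32 (SE; limma adjusted p = 0.982) and the G1/S minus G1 difference -0.22 ± 0.32 (limma adjusted p = 0.741). The G1/S difference turned to 0.47 (limma adjusted p = 0.523) after GC correction, so no direction can be given for it. The calls made up 0.0% of regions in each phase comparison (limma, 0 regions each, with 2002 at an unadjusted p under 0.05 for G1/S and 497 for S), while edgeR called 0 and 0 and DESeq2 108 and 1.

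UTF1 varied with a coefficient of 35.0% in hESCs and 49.0% in endoderm. In hESCs the G1/S to G1 ratio was 1.13 (1.05 to 1.21), and the S library was at 0.538 of G1 (0.5 to 0.579). In endoderm G1/S stood at 2.63 times G1 (2.10 to 3.29) and S at 1.49 times G1 (1.14 to 1.94). G1/S was thus the highest library in each type, and S lay below G1 in hESCs and above it in endoderm. Neither phase term passed, at 0.78 ± 0.41 for G1/S minus G1 (SE; limma adjusted p = 0.403) and -0.16 ± 0.41 for S minus G1 (limma adjusted p = 0.992). The highest UTF1 library of each type is the one enriched in GC-rich regions, and endoderm G1, where it was lowest, has the most negative GC correlation. After GC correction UTF1 had 1129, 1090 and 937.9 over the hESC phases against 148, 215.3 and 182.8 over the endoderm phases, and the G1/S term was 0.24 (limma adjusted p = 0.752). The coefficients of variation fell to 9.6% in hESCs, below that of DNMT3B, and 18.5% in endoderm, above it. The corrected S to G1 ratio was 0.831 in hESCs and 1.24 in endoderm. UTF1 lies at the GC-rich end of its GC bin (above 99.9% of named regions in GC), so the correction may be incomplete for it.

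Other genes of DNA methylation went in both directions. Of 20 listed genes 12 have a tested region, of which 1 was higher in endoderm and 2, DNMT3B included, were lower, beside 6.9% of all regions higher and 7.6% lower. The median log2 difference was 0.52 against 0.02 over all tested regions. In 6 of the 12 the groups do not overlap, as in 33.4% of all regions in either direction. DNMT3A, the other de novo methyltransferase, had signals of 1495, 1980 and 2096 over the hESC phases against 798.2, 1274 and 1092 over the endoderm phases. It fell by 0.83 ± 0.22 on the log2 scale (SE; limma adjusted p = 0.0453). That call held without endoderm G1 (limma adjusted p = 0.0474) and was lost without each of the other 5 libraries (limma adjusted p from 0.0534 to 0.174).

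The maintenance enzyme DNMT1 did not pass the test. Its stronger region, chr19:10147204-10147341, had signals of 303.4, 32.28 and 80.34 in hESCs against 126.4, 53.24 and 113.0 in endoderm (-0.02 ± 0.44 SE, limma adjusted p = 0.978). The difference ran from -0.39 to 0.60 as single libraries were left out. A further DNMT1 region, chr19:10105025-10105271, had 55.23, 29.15 and 72.66 in hESCs against 127.0, 24.95 and 54.77 in endoderm (0.19 ± 0.42 SE, limma adjusted p = 0.775). Among hESC libraries the regions thus differ mainly in G1, and neither was assigned to an annotated DNMT1 end. UHRF1, which brings DNMT1 to newly replicated DNA, was at 18.9 ± 5.77 in hESCs and 32.9 ± 5.80 in endoderm (SD, n = 3 per type; limma adjusted p = 0.239). The remodeller HELLS, which assists de novo methylation, was at 11.0 ± 1.29 and 17.1 ± 6.06 (limma adjusted p = 0.477).

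The methyl-CpG binding protein MBD1 was the member called higher, with signals of 4.54, 15.6 and 12.4 in hESCs against 18.6, 53.2 and 41.1 in endoderm (1.73 ± 0.43 SE, limma adjusted p = 0.0397). That call held without hESC G1 (limma adjusted p = 0.0429) and was lost without each of the other 5 libraries. The related genes MBD2 (0.49) and MBD4 (0.09) did not pass, nor did TDG (1.89), a thymine glycosylase that takes part in demethylation. AHCY, which clears the by-product of methyl transfer, was at 291.6 ± 149 in hESCs and 143.3 ± 42.3 in endoderm (-0.95 ± 0.38 SE, limma adjusted p = 0.13). MAT2A, which makes the methyl donor, differed by 1.80 ± 0.64 on the log2 scale (SE; limma adjusted p = 0.096), with hESC signals from 1.51 in G1 to 77.0 in G1/S.

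**Figure D2:**
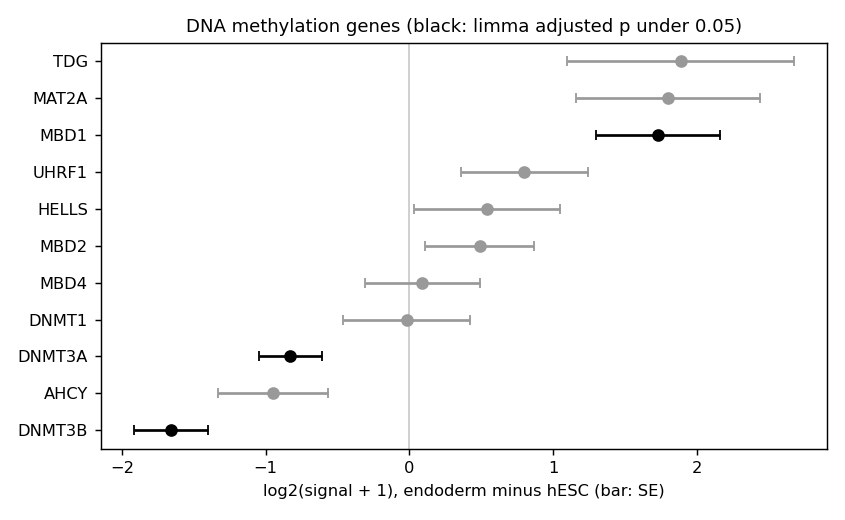
Difference of log2(signal + 1), endoderm minus hESC, with its standard error for 11 of the 12 measured DNA methylation genes, each at its most abundant region. DNMT3B at -1.66 and DNMT3A at -0.83 are called lower and MBD1 at 1.73 higher (black), and the other 8 drawn did not pass (grey).

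Genes tied to UTF1 function were looked at in the same fit. Of 24 measured Polycomb and silencing genes limma called 1 higher and 0 lower, beside 6.9% and 7.6% of all regions. Their median log2 difference was 0.42, against 0.02 over all tested regions. An unadjusted limma p under 0.05 was reached by 6 of them and by 34.2% of all tested regions. The calls were 1 higher and 0 lower in edgeR, 4 and 1 in DESeq2, and 1 and 2 in limma after GC correction. The Polycomb reader CBX8 was the call, from 3.96 ± 2.37 to 23.0 ± 5.26 (SD, n = 3 per type; limma adjusted p = 0.0416), and leaving out any single library ended that call. In hESC G1 the CBX8 signal was 1.51, where 3 reads would be 2.27. Subunits of the Polycomb methyltransferase had opposite signs without a call, and the lower group of each rests on few reads. SUZ12 had 27.2, 15.6 and 14.8 in hESCs against 0.691, 6.65 and 0 in endoderm (limma adjusted p = 0.0532), the last from 0 reads where 3 reads would be a signal of 5.13. The catalytic subunit EZH2 had 4.54, 1.04 and 0 in hESCs against 31.1, 3.33 and 47.9 in endoderm (limma adjusted p = 0.0756). For these hESC libraries 3 reads would be a signal of 2.27 (G1), 3.12 (G1/S) and 1.77 (S). Of 6 measured decapping genes 0 passed in limma, edgeR or DESeq2, and 1 had an unadjusted limma p under 0.05 (median 0.36), while limma without the intensity trend called 1 higher. PATL1, which links decapping to deadenylated transcripts, had the smallest p, at 5.68 ± 1.73 in hESCs and 21.0 ± 4.53 in endoderm (SD, n = 3 per type, groups not overlapping, limma adjusted p = 0.0702). The decapping activator DCP1A was at 8.98 ± 3.21 in hESCs and 22.6 ± 12.8 in endoderm (limma adjusted p = 0.216). The scavenger decapping enzyme DCPS had the opposite sign, at 103.7 ± 11.1 and 73.1 ± 7.38 (limma adjusted p = 0.283), and EDC4, a scaffold of the decapping complex, differed by 0.32 (limma adjusted p = 0.409).

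Among pluripotency genes, SOX2, which activates UTF1 together with OCT4, fell by 1.62 ± 0.33 on the log2 scale (SE; limma adjusted p = 0.0214), from 1917, 1537 and 1391 to 341.8, 843.5 and 486.1. Like UTF1, SOX2 was lowest in endoderm G1 and highest among endoderm libraries in G1/S. Among hESC libraries SOX2 was highest in G1, while UTF1 was highest in G1/S. Whether SOX2 has a part in the fall of UTF1 was not tested. The gene of OCT4, POU5F1, was measured too, but it is not among the 4 genes of the list with the smallest p, which alone are named. The kinase LCK (-2.72) also fell, while the homeobox factor OTX2 (3.55), which is on the endoderm list too, and the ligand GDF3 (3.52) rose. The 18 measured pluripotency genes, a list that holds neither member, had a median of 0.43, against 0.02 over all tested regions. Calls went in both directions (3 higher and 5 lower, beside 6.9% and 7.6% of all regions). The 5 falls became 1 without hESC G1/S, 2 without endoderm G1/S, 2 without hESC S and 0 without the intensity trend.

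Markers of other lineages were measured beside the members. Over all tested regions 6.9% were called higher in endoderm and 7.6% lower. Of 4 mesoderm genes 1 rose (TWIST1, 2.62), of 5 neuroectoderm genes 2 rose (PAX6, 4.40, and NCAM1, 1.31), and the 4 trophoblast or extraembryonic genes split evenly (GATA3, 2.62, LAMB1, 1.72, KRT7, -2.42, and TFAP2C, -2.12). Of 8 stromal genes 3 rose and 2 fell (CDH2, 2.23, TAGLN, 1.10, COL1A1, -1.78, and THY1, -1.43, are the 4 with the smallest p). The summed signal of the mesoderm genes was 84 to 107 in hESCs and 124 to 296 in endoderm, that of the trophoblast genes 294 to 415 and 327 to 649, that of the neuroectoderm genes 7858 to 11396 and 7341 to 14289, and that of the stromal genes 26983 to 42542 and 32893 to 76062. Several of these calls were lost when a library was left out, but so were calls over all tested regions. Without hESC G1/S, 223 regions were called higher and 196 lower, against 1011 and 1114 in the full fit. Without hESC G1/S the trophoblast and extraembryonic calls went from 2 higher and 2 lower to 0 and 0, and without endoderm G1/S to 0 and 1. Without either of these libraries the stromal calls went from 3 and 2 to 1 and 0, and without either S library stromal genes higher went to 1. Trophoblast and extraembryonic genes lower went to 1 without either S library, and the NCAM1 call held without hESC G1 and was lost without each of the other 5 libraries. Their part in the falls of DNMT3B and UTF1 was not tested.

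The regions within 150 kb of each member show whether its surroundings moved with it. Around DNMT3B 4 other regions are listed, and none of them fell, where 7.6% of all tested regions were called lower. MAPRE1, a microtubule end-binding protein encoded 39.8 kb downstream on the same strand, rose from 26.5, 34.4 and 36.6 to 80.1, 93.2 and 114.7 (1.53 ± 0.33 SE, limma adjusted p = 0.0258). An unnamed region on the opposite strand, chr20:30860729-30860872, shares 107 bases with the DNMT3B region. Its hESC signal was 9.84 (G1), 35.4 (G1/S) and 123.5 (S), from 13, 34 and 209 reads, so its S to G1 ratio was 12.6 (95% counting interval 7.18 to 24.0), while DNMT3B itself was at 0.836. In endoderm it was at 49.7, 24.9 and 47.9, with an S to G1 ratio of 0.964 (0.6 to 1.51). Whether reads were counted by strand is not given in the sources used here. With all signal of that region subtracted from DNMT3B, a check chosen after seeing the data, DNMT3B had 460, 417.5 and 269.4 in hESCs against 116, 101.5 and 77.0 in endoderm (-1.93, limma adjusted p = 0.00677).

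Around UTF1 11 other regions are listed, 3 of which were called lower too, beside 7.6% of all tested regions. These 3 had 0 to 5 reads in each endoderm library. KNDC1, the upstream neighbour on the same strand, ends 5.1 kb away with signals of 223.2, 218.6 and 179.0 in hESCs against 105.6, 166.4 and 135.2 in endoderm (-0.62 ± 0.30 SE, limma adjusted p = 0.182). A weaker KNDC1 region further upstream had a difference of -2.10 ± 0.68 (SE; limma adjusted p = 0.0765). A pair of unnamed regions on the opposite strand fell. The first, chr10:134860188-134860338, had 30, 24 and 25 reads in hESCs and 2, 1 and 0 in endoderm (limma adjusted p = 0.0229). The other, chr10:134870269-134870432, had 38, 23 and 22 reads and 1, 1 and 0 (limma adjusted p = 0.0214). Downstream, the homeobox gene VENTX at 10.4 kb was unlike UTF1, with 106.7, 102.0 and 73.2 in hESCs against 61.4, 151.4 and 131.8 in endoderm (0.21 ± 0.39 SE, limma adjusted p = 0.738). PRAP1, at 121 kb, had 75, 90 and 83 reads in hESCs and 5, 1 and 3 in endoderm (limma adjusted p = 0.00723). The other 5 downstream regions differed by between -0.10 and 0.52 on the log2 scale without a call.

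**Figure D3:**
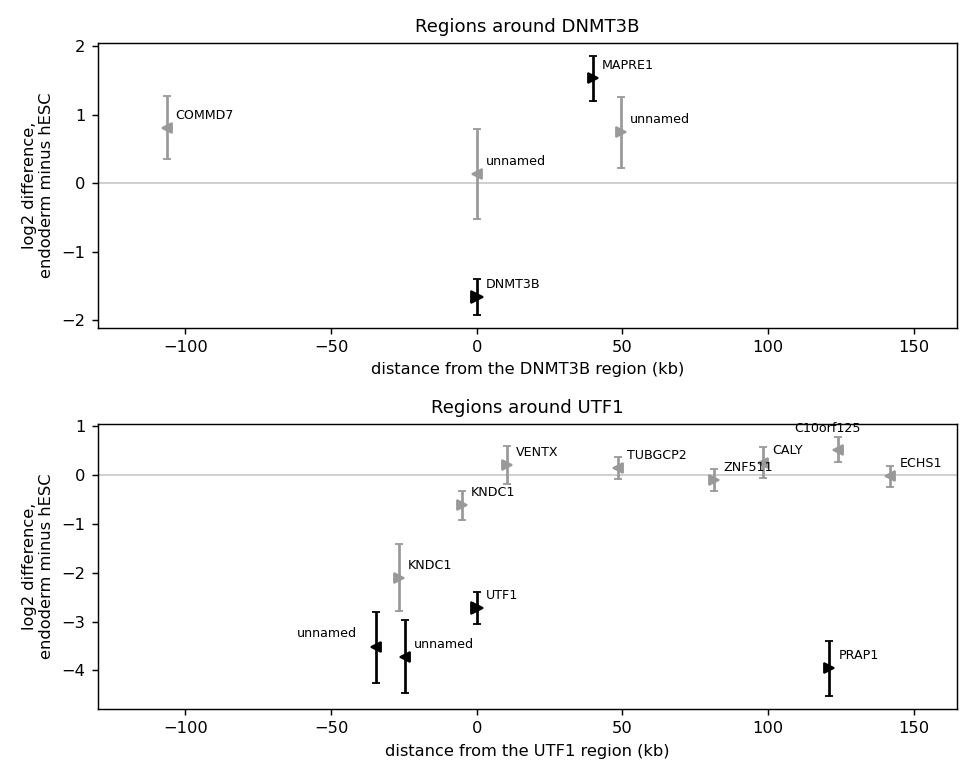
Difference of log2(signal + 1), endoderm minus hESC, with its standard error for each region within 150 kb of DNMT3B and UTF1, against the distance in kb. Triangles point right for the strand of the member and left for the other strand, black marks a limma adjusted p under 0.05, and DNMT3B is the only region of its window below -1 while UTF1, the unnamed regions, the weaker KNDC1 region and PRAP1 lie below -2.

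Other genes were ranked by how closely their profile over the 6 libraries follows each member, as the root mean square difference of centred log2(signal + 1) values among 9581 gene names. Among the 5 closest to DNMT3B were NRGN (0.098), ARHGEF19 (0.108), CEP250 (0.156) and RASIP1 (0.159). NRGN, a calmodulin-binding protein known from neurons, had signals of 79.4, 65.6 and 61.4 in hESCs and 23.5, 16.6 and 18.8 in endoderm. RASIP1, a Ras-interacting protein, had 248.1, 213.4 and 183.7 in hESCs against 60.8, 59.9 and 53.1 in endoderm. The closest to UTF1 were CABP1 (0.081), RCN3 (0.204), TMEM145 (0.217), C8orfK29 (0.236) and hCG_31249 (0.246). CABP1, a calcium-binding protein, had 75.7, 95.8 and 40.2 in hESCs and 6.21, 16.6 and 8.56 in endoderm, the same order of libraries as UTF1 with lower signal. The members themselves lie 0.786 apart (r = 0.905 over 6 libraries that share size factors and base composition effects). Ranked by Pearson correlation instead, 1 of the 5 genes closest to DNMT3B and 2 of the 5 closest to UTF1 stayed in the list.

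**Figure D4:**
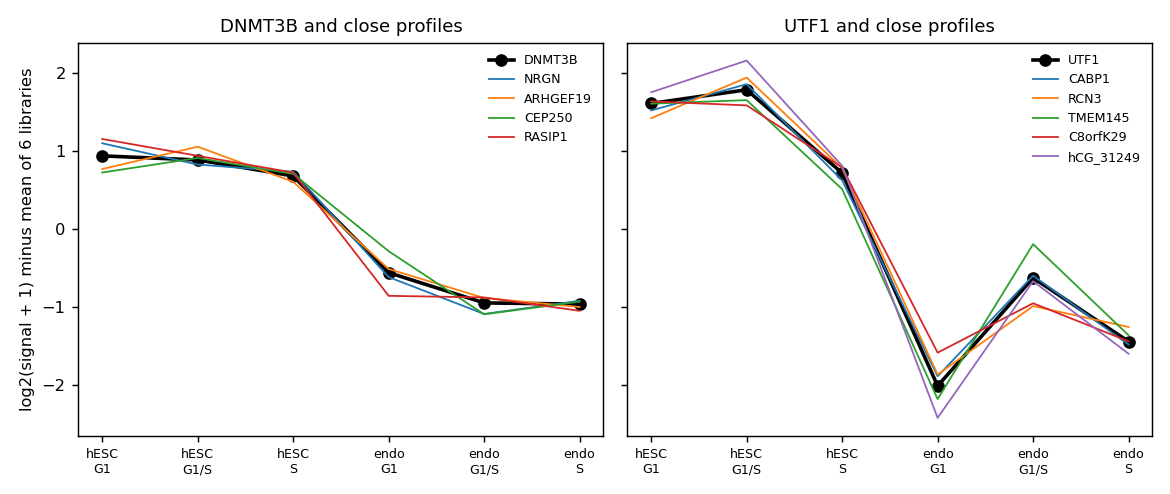
Centred log2(signal + 1) of DNMT3B and UTF1 (black, with points) and of 4 of the 5 genes closest to DNMT3B and the 5 closest to UTF1 (thin lines) over the 6 libraries, where lines join libraries only to guide the eye. The DNMT3B group is a step between cell types, and the UTF1 group has its lowest point in endoderm G1 and a second peak in endoderm G1/S.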

How the data were processed

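CASAVA 1.5, Bowtie 0.12.7 and DESeq 1.5.24 appear in the submitters' processing notes, without roles, beside the build hg18. The authors deposited 1 table of linear signal per region and library. At a tolerance of 1e-06, 100% of values are whole reads divided by 1 constant per library, and those reads were used for counts. Columns were mapped by name through the labels, and 0 were unused. Regions with log2(signal + 1) of at least 1 in at least 3 libraries were kept (14657, with 29 removed). limma 3.58.1 in R 4.3.3 was fitted with cell type and phase as terms and an intensity trend (2 residual degrees of freedom, prior 5.46). P-values of this fit were Benjamini-Hochberg adjusted over all kept regions, and called under 0.05. Each type and phase has 1 library, so p-values reflect only how far these 6 libraries scatter. edgeR 4.0.16 and DESeq2 1.42.0 were run on the recovered reads as alternatives.

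A fold on the log2(signal + 1) scale understates changes of weak genes. The share of G and C came from GENCODE transcript ends (500 bases), for 95.3% of named regions. For GC correction, each library's deviations were centred on their median within 20 GC bins. The GC-corrected fit and its adjustment cover only kept named regions with a GC value. Counting intervals are 95% exact Poisson, or exact binomial for ratios, and cover counting error only. A name with several regions is represented by its most abundant one. The rule names all measured members of the methylation list, up to 4 of the smallest p from each other list, and the 5 closest profiles. Of these, 2 genes are not reported here. The members and lists were chosen with earlier results of these data known.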

Additional observations from a re-analysis of the deposited data

Results flagged for a closer look

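UTF1 moved in opposite directions from G1 to S in the 2 cell types, at 0.538 times its G1 signal in hESCs and 1.49 times in endoderm, with counting intervals that exclude 1 on either side. The difference itself was not tested, since each type has 1 library per phase. After GC correction the ratios were 0.831 and 1.24, in the same directions and closer to 1. The correction uses the median of a GC bin, and UTF1 lies at the GC-rich end of its bin, above 99.9% of named regions in GC. It may therefore be incomplete for UTF1, and the part of base composition beyond these values was not tested.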

How the results depend on the processing

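UTF1 kept its fall and its call under all 19 alternatives to the fit. DNMT3B kept its fall in all 20 and its call in 17, the exceptions being the fits without the G1/S libraries. Without both of them it was at -1.57 (limma adjusted p = 0.0733), and leaving out 1 library at a time gave -1.74 to -1.57. With phase as a term, leaving out either library of a phase gives the same difference between types, as does leaving out both for G1/S. The alternatives that leave out libraries are thus not separate checks. GC correction turned the G1/S term of DNMT3B to 0.47, the S term of UTF1 to 0.02 and MBD4 to -0.04. The S term of UTF1 ran from -0.83 to 0.51 with 1 library left out (0.27 without hESC S), DNMT1 from -0.39 to 0.60 and MBD4 from -0.11 to 0.47 (-0.08 without either G1 library). Regions called higher and lower in endoderm numbered 202 and 213 without both G1/S libraries, against 1011 and 1114, and with 1 library left out 223 to 1342 and 196 to 1132 (596 and 379 without hESC S, 242 and 329 without endoderm G1/S, 601 and 599 without endoderm S). Without the intensity trend 587 were higher, and with a filter of 5 on the log2 scale 683 were lower. The 11 list genes that were lower became 4 without the trend, 1 without both G1/S libraries and 1 to 13 with 1 library left out (6 without hESC S, 3 without endoderm G1/S). For these counts the cause was not tested, beyond the fewer samples or regions of some settings. Depth limits the endoderm values of DNMT3B most, with 73 reads in S. No region share within a member was computed, since each has 1 region. The libraries are paired by phase, a term of the fit, and without this replicate block the differences of DNMT3B and UTF1 were -1.66 and -2.73, both still called.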
